A study of Mus musculus with 27 samples.

Results

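CXC chemokines are small secreted proteins that steer leukocytes along a concentration gradient. They were followed here as transcripts in 3 myeloid cell types sorted from the inflamed colon of WT and Mbd2KO mice. The members were Cxcl1, Cxcl2, Cxcl5, Cxcl9, Cxcl10, Cxcl11, Cxcl4 (platelet factor 4, now Pf4), Cxcl13, Cxcl14 and Cxcl16. A probe belonged to a member when the symbol in the deposited intensity table equalled the member's name. Of the 10 genes, 9 had a probe, with 13 probes among the 45281 of the array. Cxcl5 was not analysed here. Cxcl2, Cxcl10, Cxcl14 and Cxcl16 had 2 probes each and the other 5 genes had 1.

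Members of this family bind G protein-coupled receptors on the cells they attract. Cxcl1 and Cxcl2 carry the ELR motif and act on Cxcr2, the receptor that brings neutrophils into inflamed gut. Cxcl9, Cxcl10 and Cxcl11 are induced by interferons and act on Cxcr3, which is carried by activated T cells and NK cells. Cxcl13 guides B cells through Cxcr5, Cxcl16 is a membrane-bound ligand of Cxcr6 that is released by proteases, Cxcl4 is best known from platelet granules, and Cxcl14 is made by epithelium and stroma in many tissues. RefSeq (assembly GRCm38.p6, from a C57BL/6J mouse) places 8 of the 10 genes on chromosome 5, Cxcl16 on chromosome 11 and Cxcl14 on chromosome 13, and lists Cxcl11 as a transcribed pseudogene.

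All mice drank 2% DSS, dextran sodium sulfate, a polymer that damages the gut lining, and the study's methods give 6 days of treatment. Mbd2KO mice lack Mbd2, a protein that binds methylated CpG, in every cell, so that a difference in a sorted population need not come from that population's own loss of the gene. The methods name a C57BL/6 background and co-housed WT littermates. The methods describe adult mice matched for age and sex, and do not give the age of the mice behind each array. There were 5 WT and 5 Mbd2KO arrays of monocytes (CD11b+ Ly6C+), 5 and 5 of macrophages (CD11b+ Ly6C- MHC-II+ F4/80+), and 2 WT and 3 Mbd2KO arrays of cDC1s (CD11c+ CD103+ CD11b-), 25 in all. Each array held RNA pooled from several mice or from 1, at most 10 by the methods and at most 5 by the deposited record. The arrays came from several experiments, and which array came from which is not given in the sources used here. The methods call the arrays of a group biological replicates, and p-values measure the spread between these arrays. Fewer cells of a type in a sort and less RNA per cell cannot be told apart in such bulk samples.

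Mean probe brightness ran from 172 to 353 per array, and 16024 to 18608 probes were above background. The Mbd2 probe was above background on 0 of 25 arrays so the labels of genotype could not be checked with it. The labelled cell types carried their markers: 10 of 10 macrophage markers were detected on every macrophage array, 8 of 9 cDC1 markers on every cDC1 array, and 8 of 9 monocyte markers on every monocyte array, the exception being Ccr2. Epcam, which defines epithelium, was detected on no array of 5 of the 6 groups. The other 9 epithelial markers were detected on every array, with a summed level on the linear scale of 5736 to 22265 that overlapped between all groups.

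Levels are given as log2 of the background-corrected, quantile normalized intensity, one array at a time, and each array is named by its label number. A gene is described by its brighter probe, the other being called the second probe. Levels of different probes are not compared, since probes differ in how well they hybridise. The precision of one reading was high: 23 to 72 beads lay behind each value, and the standard error over beads had a median of 3.56% of the signal. A probe was tested in a comparison when it was above background (detection p under 0.05) on at least as many of the arrays compared as the smaller side of the comparison held. It was called when the Benjamini-Hochberg adjusted p of limma, taken over all probes tested, was under 0.05 and the log2 difference was at least 1.

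Cxcl11 was the one member with a probe that was not detected on these arrays. Its probe was above background on 0 of the 25 colon arrays, with levels of 4.19 to 4.53 in every group, and it was tested in no comparison. The other 12 probes, of 8 genes, were tested in every comparison.

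**Figure D1:**
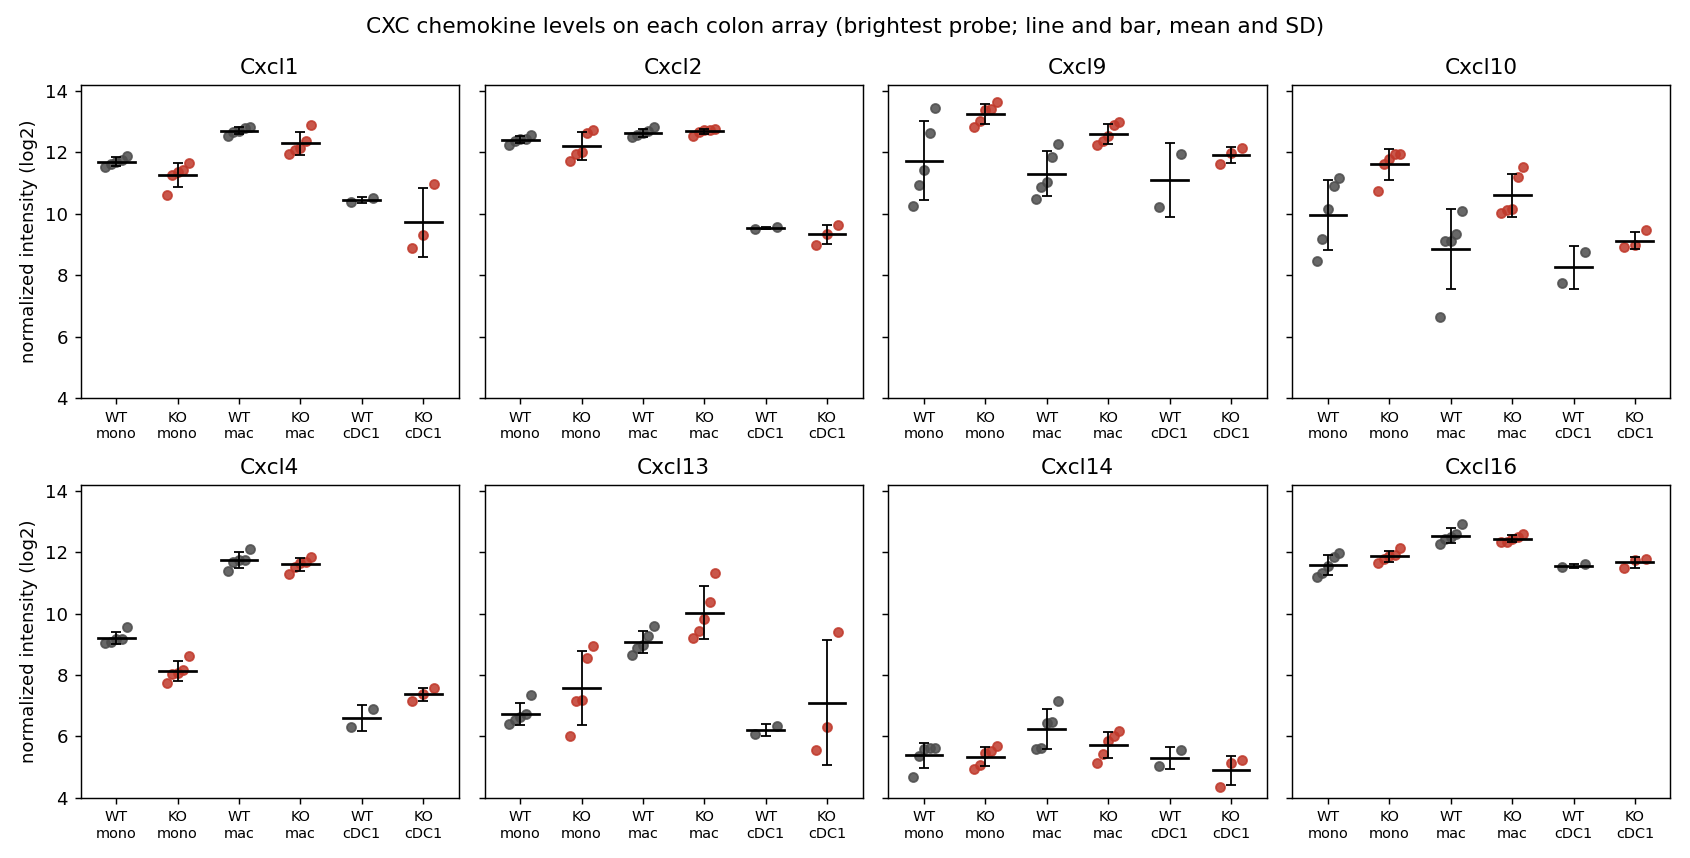
Normalized log2 intensity (vertical axis) of the brighter probe of 8 CXC chemokines on the 25 colon arrays, with WT arrays in grey and Mbd2KO (KO) arrays in red, and lines and bars for the mean and SD of monocytes (mono), macrophages (mac) and cDC1s. Cxcl4 lies between 11.30 and 12.11 on macrophage arrays and between 6.31 and 7.57 on cDC1 arrays, while Cxcl16 lies between 11.20 and 12.93 throughout.

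Most members differed more between the cell types than between the genotypes. Monocyte and macrophage arrays lay in different sets of 6 successive columns of the deposited table. Cell type and set thus cannot be told apart between these 2 cell types. Macrophages had the most Cxcl1, Cxcl4, Cxcl13, Cxcl14 and Cxcl16, monocytes had more Cxcl10 than either of the others by at least 1 of its probes, and cDC1s were highest for none of the 8 tested genes. In macrophages against monocytes 4 members were called, Cxcl1, Cxcl4 and Cxcl13 higher and Cxcl10 lower, where 4.89% of all 16347 probes tested were called (2.51% higher and 2.38% lower). In cDC1s against macrophages 7 members were called, all lower, where 16.3% of all probes were called and 8.35% were called lower. For Cxcl10, Cxcl14 and Cxcl16 that call came from the second probe alone. In cDC1s against monocytes Cxcl1, Cxcl2, Cxcl4 and Cxcl10 were called, again all lower, where 17.2% of all probes were called and 8.75% were called lower. Counted as probes, 4, 8 and 6 of the 12 member probes were called in the 3 comparisons. By the adjusted p alone, 7 of the 8 members passed by at least 1 probe in each of the 3 comparisons, where 40.4%, 54.2% and 54.6% of all probes did. Arrays of the 2 cell types did not overlap for 4, 6 and 3 of the 12 member probes, where this held for 7.69%, 21.4% and 26.2% of all probes. Each difference is the WT and the Mbd2KO difference averaged with equal weight. The median log2 difference over the 12 member probes was 0.65 for macrophages minus monocytes, -1.28 for cDC1s minus macrophages and -1.20 for cDC1s minus monocytes, while the medians over all probes tested were 0.00, -0.01 and -0.01.

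**Figure D2:**
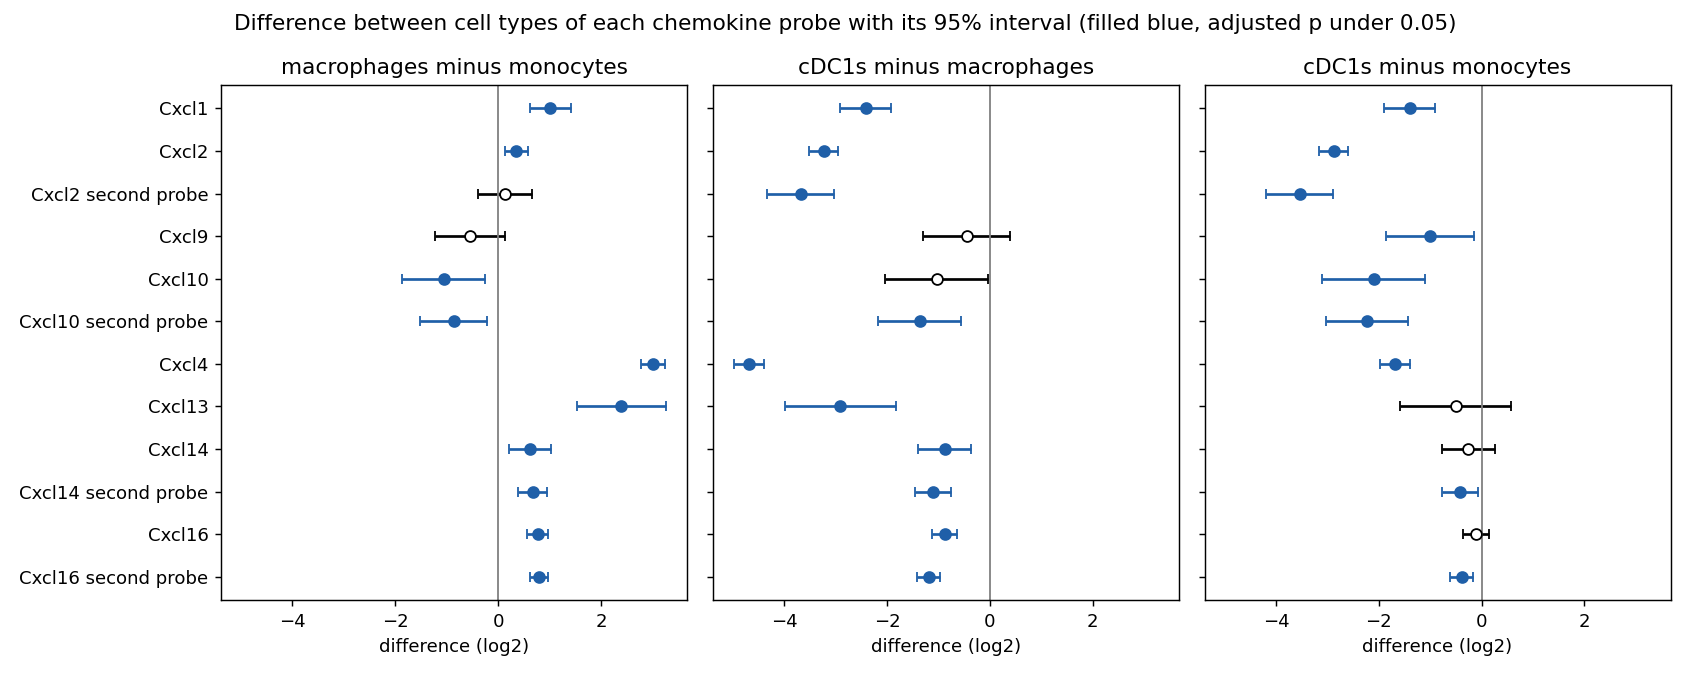
Log2 difference between cell types (horizontal axis) for each of the 12 tested probes of CXC chemokines, as points with 95% intervals, filled in blue where the adjusted p was under 0.05. All 12 points lie below 0 in both comparisons of cDC1s, and Cxcl4 lies farthest from 0 in macrophages minus monocytes (3.00) and in cDC1s minus macrophages (-4.69).

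Loss of Mbd2 went with few called differences among these genes. In monocytes 1 member was called, Cxcl4, which was lower, where 0.42% of all 16190 probes tested were called and 0.105% were called lower. In macrophages 0 members were called, where 1.45% of all probes were, and in cDC1s also 0, where 1.88% of all probes were. These shares depend on the model over all 25 arrays, which called 68, 244 and 336 probes in monocytes, macrophages and cDC1s. With each cell type normalized and fitted alone, 71, 48 and 0 probes were called. By the adjusted p alone, 1, 0 and 1 members passed (Cxcl4 in monocytes and in cDC1s), where 2.37%, 7.21% and 8.61% of all probes did. In limma without adjustment, 5 of the 12 member probes had p under 0.05 in monocytes, 3 in macrophages and 2 in cDC1s. Of all probes, 15.4%, 25.3% and 25.8% did. Counted as members with at least 1 such probe, these were 4, 3 and 2 of the 8. The median log2 difference over the 12 member probes was 0.17 in monocytes, -0.03 in macrophages and 0.09 in cDC1s, beside -0.02, -0.07 and 0.03 over all probes tested. Of the member probes, the WT and Mbd2KO arrays did not overlap for 1 in monocytes, 0 in macrophages and 3 in cDC1s, where this held for 4.85%, 5.29% and 31.8% of all probes.

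**Figure D3:**
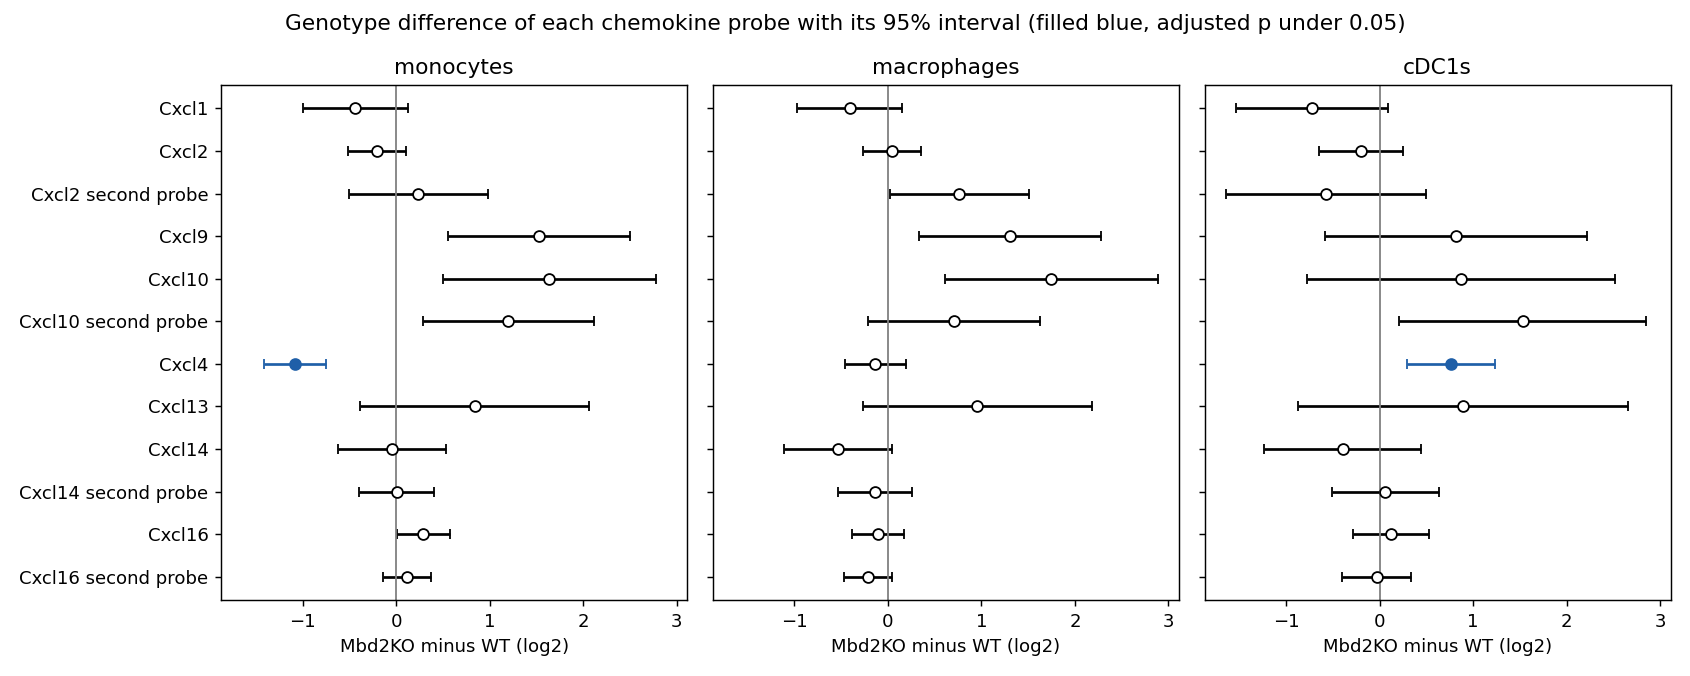
Log2 difference Mbd2KO minus WT (horizontal axis) for the same 12 probes in monocytes, macrophages and cDC1s, as points with 95% intervals, filled in blue where the adjusted p was under 0.05. Cxcl4 is the one filled point in monocytes (-1.08) and in cDC1s (0.77), and the probes of Cxcl9 and Cxcl10 lie above 0 in each cell type with wide intervals.

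The neutrophil attractants Cxcl1 and Cxcl2 were bright in monocytes and macrophages and dimmer in cDC1s, in both genotypes. Their promoters are shown because both genes were lowest in cDC1s by the group means. The 250 bases before each gene's start, on the plus strand of GRCm38.p6 at chr5:90890995-90891244 for Cxcl1 and at chr5:90903649-90903898 for Cxcl2, were taken from RefSeq. Capitals mark matches to the NF-kappaB consensus on either strand.
Cxcl1: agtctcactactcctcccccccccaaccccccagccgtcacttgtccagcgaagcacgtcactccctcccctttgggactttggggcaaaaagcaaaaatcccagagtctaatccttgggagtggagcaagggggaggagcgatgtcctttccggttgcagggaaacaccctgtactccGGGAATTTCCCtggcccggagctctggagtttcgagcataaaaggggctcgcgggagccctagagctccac
Cxcl2: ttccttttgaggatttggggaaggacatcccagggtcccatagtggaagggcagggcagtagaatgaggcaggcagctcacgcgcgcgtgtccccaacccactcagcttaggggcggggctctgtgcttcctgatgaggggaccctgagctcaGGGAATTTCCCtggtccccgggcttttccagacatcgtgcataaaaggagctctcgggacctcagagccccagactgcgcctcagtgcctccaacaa
Both held the same 11 bases, GGGAATTTCCC, in which a plus and a minus strand match overlap, 71 to 61 bases before the start of Cxcl1 and 97 to 87 bases before that of Cxcl2. Of 32851 promoters in the table, 7.25% held a match to this consensus in the same window. A match describes the letters and not a bound site.

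Cxcl1 was 2.02-fold higher in macrophages than in monocytes and lowest in cDC1s. On WT monocyte arrays 1 to 5 it read 11.74, 11.64, 11.52, 11.71 and 11.89, and on Mbd2KO monocyte arrays 6 to 10 it read 11.36, 11.44, 11.26, 11.64 and 10.60. WT macrophage arrays 11 to 15 gave 12.53, 12.82, 12.79, 12.67 and 12.72, and Mbd2KO macrophage arrays 16 to 20 gave 12.13, 12.39, 12.08, 12.91 and 11.95. Every macrophage array lay above every monocyte array, and the Mbd2KO arrays of both types spread more widely than the WT arrays, with array 10 the lowest monocyte array and array 20 the lowest macrophage array. In cDC1s the 2 WT arrays 23 and 26 read 10.52 and 10.38, and the Mbd2KO arrays 27, 28 and 30 read 9.30, 10.98 and 8.88, so that array 28 was above both WT arrays and the other two were below them.

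The difference of Cxcl1 between macrophages and monocytes was 1.02 ± 0.19 (log2, SE; adjusted p = 0.000194), with 1.00 in WT and 1.03 in Mbd2KO. In cDC1s it was lower than in macrophages by -2.41 ± 0.24 (adjusted p = 1.77e-08) and than in monocytes by -1.40 ± 0.24 (adjusted p = 3.46e-05). Leaving out array 3, 10 or 19 took the difference between macrophages and monocytes below the minimum of 1 (to 0.997, 0.938 and 0.944), with the adjusted p still at most 0.000482. Mbd2KO minus WT was -0.44 (95% interval -1.002 to 0.12) in monocytes, -0.41 (-0.97 to 0.15) in macrophages and -0.73 (-1.54 to 0.08) in cDC1s. None passed the adjusted p (0.473, 0.353 and 0.248).

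Cxcl2 was nearly level between monocytes and macrophages and 7.36 to 9.41-fold lower in cDC1s. It read 12.24 to 12.55 on WT and 11.72 to 12.72 on Mbd2KO monocyte arrays, 12.52 to 12.85 on WT and 12.55 to 12.78 on Mbd2KO macrophage arrays, 9.56 and 9.51 on the 2 WT cDC1 arrays, and 9.64, 9.00 and 9.35 on the 3 Mbd2KO cDC1 arrays. No cDC1 array came near any array of the other cell types. The log2 difference was -3.23 ± 0.13 for cDC1s minus macrophages (adjusted p = 7.90e-15) and -2.88 ± 0.13 for cDC1s minus monocytes (adjusted p = 5.13e-14), and the second probe gave -3.68 and -3.54. Macrophages exceeded monocytes by 0.36 ± 0.11 (adjusted p = 0.01), which the second probe (0.14, adjusted p = 0.698) and median scaling (0.24, adjusted p = 0.300) did not pass.

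By genotype Cxcl2 differed by less than the arrays spread. Mbd2KO minus WT was -0.20 (95% interval -0.51 to 0.11) in monocytes, 0.05 (-0.27 to 0.36) in macrophages and -0.20 (-0.65 to 0.25) in cDC1s, with adjusted p of 0.566, 0.875 and 0.597. The second probe gave 0.24, 0.76 and -0.57, and none of these passed either (adjusted p = 0.818, 0.185 and 0.518). Its arrays spread more, from 9.14 to 10.68 in WT and from 9.86 to 11.61 in Mbd2KO macrophages.

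The interferon-induced pair Cxcl9 and Cxcl10 had the largest differences between the genotypes of all members in monocytes and macrophages. The adjusted p was above 0.05 for each. Promoters of both are shown because these genes moved together over the arrays. The 250 bases before each start, on the minus strand of GRCm38.p6 at chr5:92328080-92328329 for Cxcl9 and at chr5:92348890-92349139 for Cxcl10, were taken from RefSeq. Capitals mark a pair of interferon response elements, GAAA and GAAA with any 2 bases between them, and matches to the NF-kappaB consensus, both searched on either strand.
Cxcl9: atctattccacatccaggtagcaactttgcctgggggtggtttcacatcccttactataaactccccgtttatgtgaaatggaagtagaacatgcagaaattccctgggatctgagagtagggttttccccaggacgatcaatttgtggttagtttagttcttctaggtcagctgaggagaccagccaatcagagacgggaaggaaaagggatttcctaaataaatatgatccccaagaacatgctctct
Cxcl10: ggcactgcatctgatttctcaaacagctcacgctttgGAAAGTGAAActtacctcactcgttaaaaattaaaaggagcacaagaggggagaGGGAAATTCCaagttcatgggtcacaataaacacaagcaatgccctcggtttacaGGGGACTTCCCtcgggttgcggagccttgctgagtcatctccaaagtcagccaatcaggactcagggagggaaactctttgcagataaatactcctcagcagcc
Cxcl10 held GAAAGTGAAA 213 to 204 bases before the start, which 2.98% of all promoters match in this window, and the NF-kappaB consensus at 159 to 150 bases and, as overlapping matches, at 104 to 94 bases. Neither motif was found in this window of Cxcl9, which says only that these letters are not there. Cxcl9 held 3 CpG and Cxcl10 held 5 in these bases, where the median promoter held 6.

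Cxcl9 was 2.88-fold higher in Mbd2KO than in WT monocytes and 2.47-fold higher in macrophages by the group means, yet its WT arrays were split. On WT monocyte arrays 1 to 5 it read 11.44, 10.94, 10.24, 13.45 and 12.62, and on Mbd2KO arrays 6 to 10 it read 13.03, 12.83, 13.39, 13.43 and 13.64. WT arrays 4 and 5 lay at or near the Mbd2KO arrays, while 1, 2 and 3 lay below all of them. WT macrophage arrays 11 to 15 read 11.04, 10.88, 10.48, 12.28 and 11.84, and Mbd2KO macrophage arrays 16 to 20 read 12.24, 12.53, 12.38, 12.89 and 13.00. Again arrays 14 and 15 stood above the other WT arrays, and array 14 lay above the lowest Mbd2KO array. Of the WT cDC1 arrays, 23 read 10.24 and 26 read 11.96, and Mbd2KO arrays 27, 28 and 30 read 11.98, 11.61 and 12.14, with array 26 inside that range.

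Mbd2KO minus WT for Cxcl9 was 1.53 ± 0.47 in monocytes (adjusted p = 0.0896), 1.31 ± 0.47 in macrophages (adjusted p = 0.0874) and 0.81 ± 0.67 in cDC1s (adjusted p = 0.478). Without WT array 4 the monocyte value was 1.96 and passed (adjusted p = 0.0119), and with array weights it was 1.78 and passed as well (adjusted p = 0.0184). The difference of the genotype effect between cell types did not pass in any pair of cell types, with values from -0.71 to -0.22 and adjusted p from 0.698 to 0.963. By cell type, Cxcl9 in cDC1s was lower than in monocytes by -0.997 ± 0.41 (adjusted p = 0.0444), which 4 of 12 alternatives and leaving out any of 9 single arrays did not pass. The other differences between cell types, -0.55 for macrophages minus monocytes and -0.45 for cDC1s minus macrophages, did not pass (adjusted p = 0.203 and 0.370).

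Cxcl10 followed the same split and stood 3.11-fold higher in Mbd2KO monocytes and 3.35-fold higher in Mbd2KO macrophages by the group means. WT monocyte arrays 1 to 5 read 10.16, 9.18, 8.47, 11.15 and 10.89, and Mbd2KO arrays 6 to 10 read 11.61, 10.74, 11.94, 11.95 and 11.80. WT arrays 4 and 5 were again the 2 highest of their group and overlapped with Mbd2KO array 7. WT macrophage arrays 11 to 15 read 9.10, 6.63, 9.11, 9.34 and 10.10, and Mbd2KO macrophage arrays 16 to 20 read 10.12, 10.02, 10.16, 11.51 and 11.19. Array 12 was far below the rest on this probe and not on the second probe, where it read 8.14 among WT values of 7.77 to 9.36. WT cDC1 arrays 23 and 26 read 7.75 and 8.76, and Mbd2KO arrays 27, 28 and 30 read 8.93, 8.99 and 9.46, just above them.

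Mbd2KO minus WT for Cxcl10 was 1.64 ± 0.55 in monocytes (adjusted p = 0.125), 1.74 ± 0.55 in macrophages (adjusted p = 0.0555) and 0.87 ± 0.79 in cDC1s (adjusted p = 0.524). Its second probe gave 1.198, 0.71 and 1.53, with adjusted p of 0.171, 0.326 and 0.133. The macrophage value passed when only probes detected at p under 0.01 were tested (adjusted p = 0.0468) or when WT array 15 was left out (2.06, adjusted p = 0.0246), and the monocyte value passed with array weights (1.86, adjusted p = 0.0232). By cell type, macrophages had less Cxcl10 than monocytes, by -1.06 ± 0.39 (adjusted p = 0.0330) and by -0.86 on the second probe (adjusted p = 0.0310). Leaving out any of 10 single arrays took the first of these past the threshold (adjusted p up to 0.0679). In cDC1s it was lower than in monocytes by -2.10 ± 0.48 (adjusted p = 0.000837; second probe -2.23), and lower than in macrophages by -1.04 ± 0.48, which passed on the second probe (-1.37, adjusted p = 0.00509) and not on this one (adjusted p = 0.0745).

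The split of the WT arrays followed the order of the deposited table, in which the arrays of monocytes fill 2 sets of 6 successive columns together with 1 cDC1 array each, and the arrays of macrophages likewise. Both WT cDC1 arrays (23 and 26) lay in the monocyte sets, and the Mbd2KO cDC1 arrays (27, 28 and 30) lay in other sets. Genotype and set thus cannot be told apart in cDC1s. In the first set of monocytes, WT arrays 1 to 3 stood beside Mbd2KO arrays 9 and 10, and Cxcl9 differed by 2.66 and Cxcl10 by 2.61 on the log2 scale. In the second set, WT arrays 4 and 5 stood beside Mbd2KO arrays 6 to 8, and the differences were 0.046 and 0.41. Macrophages showed the same: 2.15 for Cxcl9 and 3.07 for Cxcl10 in the first of their sets, and 0.33 and 0.38 in the second. The second probe of Cxcl10 gave 2.07 and 0.088 in monocytes, and 1.42 and -0.22 in macrophages. Both chemokines were thus separated between genotypes in one set of each cell type and overlapped in the other, except the second probe of Cxcl10 in the second macrophage set, where the WT arrays were the higher. Neither the table nor the labels say what a set of columns is, and its part in the result was not tested. With the sets as a fixed block the differences were 1.36 (adjusted p = 0.133) and 1.51 (adjusted p = 0.219) in monocytes, and 1.24 (adjusted p = 0.0921) and 1.73 (adjusted p = 0.0835) in macrophages.

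**Figure D4:**
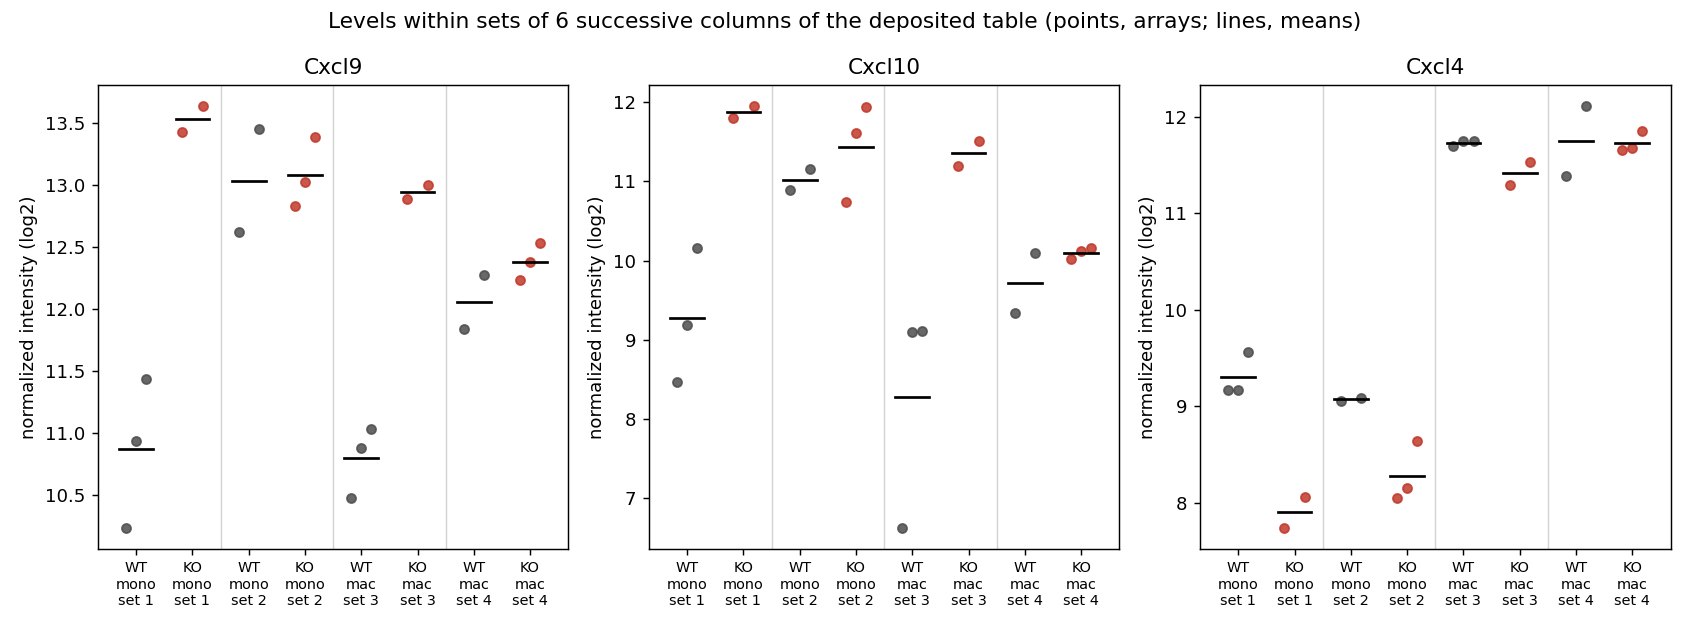
Normalized log2 intensity (vertical axes, which differ in range) of Cxcl9, Cxcl10 and Cxcl4 on the 20 arrays of monocytes and macrophages, split by genotype and by set of 6 successive columns, with arrays as points and means as lines. Mean differences of Cxcl9 are 2.66 and 0.046 in the 2 monocyte sets, while Cxcl4 is lower in Mbd2KO monocytes in both (-1.40 and -0.79).

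Marker lists of other cells were read on the WT arrays with high Cxcl9. The summed linear level of 9 T and NK cell markers was 647 and 634 on WT monocyte arrays 4 and 5 against 330 to 417 on WT arrays 1 to 3, and 376 to 436 on the Mbd2KO arrays, with Cd8a detected on no monocyte array. In macrophages it was 726 and 695 on arrays 14 and 15, 448 to 617 on the other WT arrays and 428 to 591 on the Mbd2KO arrays. These sums were highest on the WT arrays with high Cxcl9 and lower on every Mbd2KO array, and their part in the result was not tested. In monocytes the neutrophil list summed to 7069 and 5216 on arrays 4 and 5 and 2592 to 3728 on arrays 1 to 3. On Mbd2KO arrays 6 to 10 it summed to 7246, 6854, 6439, 5744 and 5768. It thus moved with Cxcl9 over the WT arrays. Arrays 9 and 10, with the most Cxcl9 of the Mbd2KO monocyte arrays, had the lowest sums of that group. The part of this list too was not tested. In macrophages that list read 2828 and 2001 on arrays 14 and 15, 1526 to 2221 on the other WT arrays and 1742 to 5071 on the Mbd2KO arrays. The epithelial list was lowest on the same WT arrays. It summed to 7695 and 8765 on arrays 4 and 5, against 11809 to 17728 on arrays 1 to 3 and 8949 to 16076 on the Mbd2KO monocyte arrays. In macrophages it was 6522 and 7811 on arrays 14 and 15, against 11243 to 22265 on arrays 11 to 13 and 9995 to 19213 on the Mbd2KO arrays, and its part was not tested. The stromal and endothelial list was also highest among WT on these arrays, at 3659 and 3350 against 1994 to 3203 in monocytes. In macrophages it was 3288 and 4151 against 1802 to 2934. On Mbd2KO arrays it was 1907 to 4673 in monocytes and 2257 to 3776 in macrophages, and its part was not tested.

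Cxcl4 gave the clearest differences of all members, both between cell types and between genotypes. It was 8.03-fold higher in macrophages than in monocytes and 25.8-fold lower in cDC1s than in macrophages. WT monocyte arrays 1 to 5 read 9.16, 9.56, 9.17, 9.08 and 9.06, and Mbd2KO monocyte arrays 6 to 10 read 8.63, 8.15, 8.04, 7.74 and 8.06. All 5 Mbd2KO arrays lay below all 5 WT arrays. WT macrophage arrays 11 to 15 read 11.69, 11.75, 11.74, 11.39 and 12.11, and Mbd2KO macrophage arrays 16 to 20 read 11.68, 11.85, 11.65, 11.30 and 11.53. These 2 groups overlapped almost fully. In cDC1s WT arrays 23 and 26 read 6.89 and 6.31, and Mbd2KO arrays 27, 28 and 30 read 7.15, 7.38 and 7.57, all 3 above both WT arrays.

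In monocytes Cxcl4 was lower in Mbd2KO by -1.08 ± 0.16, or 2.12-fold (adjusted p = 0.000698). The direction held in both sets of columns (-1.40 and -0.79, with no overlap in either), and the adjusted p stayed between 0.000196 and 0.0104 over 13 alternatives and up to 0.00319 with any single array left out. Only the minimum fold was close: the value was -0.99 with an offset of 50 and -0.91 with no background correction, and it lay above -1 without WT array 2 (-0.99) or Mbd2KO array 9 (-0.98). In macrophages the difference was -0.13 (95% interval -0.46 to 0.19, adjusted p = 0.624). It was -0.32 in the first of their sets of columns, with no overlap, and -0.02 in the second, with overlap. In cDC1s Cxcl4 was higher in Mbd2KO by 0.77 ± 0.23 (adjusted p = 0.0398), short of the minimum fold, and 7 of 12 alternatives did not pass, among them median scaling (0.10, adjusted p = 0.860), nor did the value without array 26, 28 or 30 (adjusted p up to 0.283).

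The genotype effect on Cxcl4 differed between cDC1s and monocytes by 1.85 ± 0.28 (adjusted p = 0.00162), where the effects of 1.62% of all probes differed. Median scaling ended that call (1.56, adjusted p = 0.129). Between cDC1s and macrophages it differed by 0.90 ± 0.28 (adjusted p = 0.0499), where 7.7% of all probes did, and 8 of 12 alternatives and leaving out any of 12 single arrays ended that call. Between macrophages and monocytes the difference of 0.95 ± 0.22 did not pass (adjusted p = 0.236), and 0.0372% of all probes passed there. No other member passed in any of the 3 tests. The WT and Mbd2KO cDC1 arrays shared no set of columns, so that genotype and set cannot be told apart in the tests with cDC1s.

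Marker genes of platelets, of B and plasma cells and of other myeloid cells were read beside these values. The summed linear level of 7 platelet markers was 142 to 163 on WT and 146 to 172 on Mbd2KO monocyte arrays, and in each group 4 of the 7 were detected on no array, Tubb1 and Gp5 in both. The sum of 10 macrophage markers overlapped between WT (20573 to 22178) and Mbd2KO monocytes (17938 to 23739). By the adjusted p alone, 1 of these 10 passed lower in Mbd2KO monocytes and 0 higher. The sum of 6 B and plasma cell markers was 479 to 655 on WT and 282 to 485 on Mbd2KO monocyte arrays. Only Mbd2KO array 6 (485) lay inside the WT range, and it also had the most Cxcl4 of the Mbd2KO monocyte arrays. Of the 4 markers of that list tested, 1 was called lower and 0 higher. The part of these 3 lists in the monocyte result was not tested. On cDC1 arrays the platelet sum was 147 and 160 in WT and 188 to 212 in Mbd2KO, with 5 of the 7 markers undetected in each genotype, Ppbp among them, and the 1 marker that could be tested, Itga2b, called higher (1.32). The macrophage sum was 1921 and 2376 in WT and 3158, 2342 and 5358 in Mbd2KO cDC1s. The monocyte sum was 7072 and 6779 in WT and 7994 to 10025 in Mbd2KO cDC1s, and the neutrophil sum was 563 and 627 against 835 to 2209. Neither sum overlapped between the genotypes, where the same held for 31.8% of all single probes tested in cDC1s. Array 30 had the highest macrophage and platelet sums and the most Cxcl4 of the cDC1 arrays. The part of these signals in the cDC1 result was not tested.

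Cxcl13, which draws B cells into follicles, was highest in macrophages by the group means, and was detected on every array of the other cell types too. It was 5.27-fold higher in macrophages than in monocytes (log2 difference 2.40 ± 0.42, adjusted p = 7.99e-05) and 7.49-fold lower in cDC1s than in macrophages (-2.91 ± 0.52, adjusted p = 6.06e-05). Monocytes and cDC1s differed by -0.51 ± 0.52, which did not pass (adjusted p = 0.426). WT monocyte arrays 1 to 5 read 6.41, 6.74, 6.53, 7.35 and 6.65, and WT macrophage arrays 11 to 15 read 9.26, 8.97, 8.89, 8.65 and 9.60. In Mbd2KO the arrays scattered: monocyte arrays 6 to 10 read 7.18, 8.96, 8.57, 7.15 and 6.01, and macrophage arrays 16 to 20 read 9.20, 11.33, 10.39, 9.43 and 9.81. WT cDC1 arrays 23 and 26 read 6.07 and 6.33, and Mbd2KO arrays 27, 28 and 30 read 6.30, 9.41 and 5.57. Single Mbd2KO arrays were high in each cell type, namely 7 and 8, 17 and 18, and 28, while the others lay among or close to the WT arrays.

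The genotype difference of Cxcl13 was 0.84 (95% interval -0.38 to 2.06) in monocytes, 0.96 (-0.27 to 2.18) in macrophages and 0.89 (-0.87 to 2.65) in cDC1s, and none passed (adjusted p = 0.538, 0.318 and 0.546). Without array 28 the cDC1 value was -0.27. The summed level of 10 stromal and endothelial markers was 4700 on cDC1 array 28 against 1488 and 1024 on the other Mbd2KO cDC1 arrays. It was 4673 on monocyte array 7 against 1907 to 3227 on the other Mbd2KO monocyte arrays. Among these, array 8, also high in Cxcl13, had 3148 and array 9 had 3227. On macrophage arrays 17 and 18 the sum was 3374 and 3776, against 2257 to 2809 on the other Mbd2KO macrophage arrays. It was also 4868 on WT cDC1 array 23, where Cxcl13 was low. The part of stromal RNA in these readings was not tested.

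Cxcl14 was dim throughout and was highest in macrophages. Its level ran from 4.69 to 5.63 on WT and 4.95 to 5.68 on Mbd2KO monocyte arrays, from 5.60 to 7.14 on WT and 5.13 to 6.18 on Mbd2KO macrophage arrays, and from 4.36 to 5.56 on cDC1 arrays, of which array 27 was not above background. Macrophages exceeded monocytes by 0.62 ± 0.20 (adjusted p = 0.0148) and cDC1s were lower than macrophages by -0.88 ± 0.25 (adjusted p = 0.00452), and the second probe gave 0.68 and -1.10. That second probe, on which the call rests, was above background on only 1 of 2 WT and 1 of 3 Mbd2KO cDC1 arrays. Mbd2KO minus WT was -0.05 in monocytes, -0.54 in macrophages and -0.40 in cDC1s, none of which passed (adjusted p = 0.960, 0.237 and 0.579). The second probe differed by 0.01, -0.14 and 0.06.

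Cxcl16, the membrane-bound ligand of Cxcr6, was the steadiest member. It read 11.20 to 11.96 on WT and 11.64 to 12.13 on Mbd2KO monocyte arrays, 12.27 to 12.93 on WT and 12.33 to 12.60 on Mbd2KO macrophage arrays, and 11.47 to 11.79 on all cDC1 arrays. Every macrophage array lay above every array of the other cell types. Macrophages exceeded monocytes by 0.77 ± 0.10, or 1.70-fold (adjusted p = 1.29e-06), and cDC1s were 1.83-fold lower than macrophages (-0.88 ± 0.12, adjusted p = 1.92e-06), with 0.80 and -1.19 on the second probe. Mbd2KO minus WT was 0.29 (95% interval 0.01 to 0.57) in monocytes, -0.10 (-0.38 to 0.18) in macrophages and 0.12 (-0.29 to 0.52) in cDC1s, and none passed (adjusted p = 0.302, 0.662 and 0.749).

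Receptors, proteases and regulators around these chemokines were read from a list of 35 genes, all with a probe. Between genotypes 0 of 29 tested were called in monocytes, 1 of 27 in macrophages, higher in Mbd2KO, and 0 of 27 in cDC1s. By the adjusted p alone, 2 passed higher in monocytes, 1 higher and 2 lower in macrophages, and 1 lower in cDC1s. Among them were Cxcr1, a neutrophil chemokine receptor, in monocytes (0.94, adjusted p = 0.00235), Cxcr4 (-0.74, adjusted p = 0.0122) and Dpp4 (-0.55, adjusted p = 0.0199) in macrophages, and Jak2, a kinase of cytokine receptors, in cDC1s (-0.95, adjusted p = 0.00975). Irf1, an interferon-induced transcription factor, differed by 0.68 in monocytes (adjusted p = 0.134), 0.44 in macrophages (adjusted p = 0.243) and 0.35 in cDC1s (adjusted p = 0.550), and passed in none of them.

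Between cell types, macrophages exceeded monocytes for 3 of the 29 tested genes by the call rule and fell short for 1. They were Cxcr5, the receptor of Cxcl13 (1.22), and the matrix proteases Mmp9 (1.73) and Mmp12 (2.28), which were higher, and Mmp8 (-1.05), which was lower. In cDC1s against macrophages 5 of 28 were called higher and 8 lower. Among the higher were Cxcr3, the receptor of Cxcl9 and Cxcl10 (2.61), and Dpp4, a protease that trims them (2.41). Of the 7 T and NK cell markers tested, 4 were called higher and 2 lower in cDC1s than in macrophages. Against monocytes 5 of 6 were called higher and 0 lower. The sum of that list was 610 to 3537 on cDC1 arrays against 330 to 726 on all others. Cxcr3 was highest on cDC1 array 23 (9.71), where that sum was 3531. The sum was 3537 on cDC1 array 28, where Cxcr3 was lower than on array 23. The part of T and NK cells in the level of Cxcr3 was not tested. Among the lower were Adam17, a sheddase (-1.69), Nfkbiz, a regulator of NF-kappaB target genes (-2.21), and Zc3h12a, an RNase that degrades inflammatory transcripts (-1.74). In cDC1s against monocytes 3 of 30 were called higher, with Cxcr3 at 3.60, and 8 lower, with Nfkbiz at -1.75.

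Which genes ran most alike with each member was described by Pearson's r of the log2 level over the 25 arrays. These arrays share groups, columns and normalization, and r over all of them mostly follows the differences between cell types, so r of the deviations from the 6 group means is given too. Among the genes closest to Cxcl9 were Irf1 (0.92, and 0.93 within groups) and, over all arrays, Igtp (0.91). Cxcl10 was closest to Trafd1 (0.93) over all arrays and to LOC100038882 (0.93) within groups. Cxcl2 was closest to Apobec1 and Nfkbiz (0.98 each), and within groups to Nfkbiz (0.80).

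Cxcl4 was closest to LOC100048554 and Ms4a7 (0.98 each) over all arrays, and to Fam134a (0.70) within groups. Cxcl13 was closest to Cp (0.94) and Lyve1 (0.91) over all arrays, and within groups to Slit3 and Has1 (0.87 each). The nearest gene to Cxcl1 was 2310047A01Rik (0.94), to Cxcl14 it was 0610010F05Rik (0.87), and to Cxcl16 it was Gpr162 (0.91). Among the members themselves, Cxcl9 and Cxcl10 had 0.86 over all arrays and 0.74 within groups. Cxcl1 and Cxcl2 had 0.82 over all arrays and 0.00 within groups, so that these neutrophil attractants shared the low level in cDC1s and not the scatter within a group. Cxcl1 and Cxcl13 had 0.69 and 0.66.

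**Figure D5:**
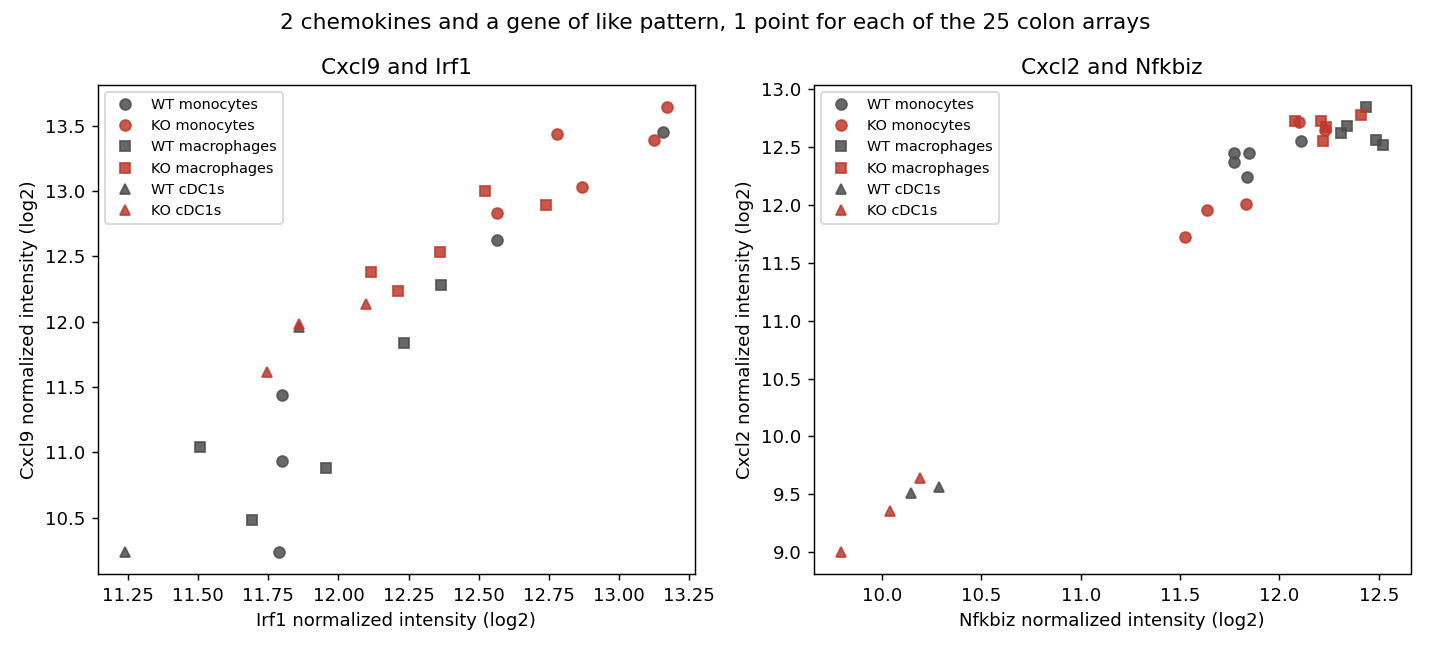
Normalized log2 intensity of Cxcl9 against Irf1 (left) and of Cxcl2 against Nfkbiz (right) on the 25 colon arrays, with WT in grey, Mbd2KO (KO) in red, circles for monocytes, squares for macrophages and triangles for cDC1s. The points of Cxcl9 and Irf1 rise together (r = 0.93 within groups), while those of Cxcl2 and Nfkbiz fall into a cDC1 cluster and a cluster of the other cell types (r = 0.98 over all arrays and 0.80 within groups).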

How the data were processed

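RNA of the sorted cells was hybridised to Illumina MouseWG-6 BeadChips. The authors deposited a table of raw probe intensity values per array, not background-corrected or normalized, with a detection p-value, the standard error over beads and the number of beads per probe. The authors' own processing is named in the deposited notes as lumi and limma, with versions not given in the sources used here. From the deposited intensity, background was corrected with normexp (limma nec, background inferred from the detection p-value, offset 16), followed by quantile normalization over the 25 colon arrays and log2. The table also lists 936 negative control probes, which served in an alternative. Another 3 signal columns match no sample used here and were left out. The splenic CD4 T cells, with 1 array per genotype, entered no comparison.

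One linear model over 6 groups with empirical Bayes (limma 3.58.1 in R 4.3.3) gave genotype differences within a cell type, differences between cell types with the genotypes weighted equally, and differences between genotype effects. P-values were adjusted by Benjamini-Hochberg over all probes tested in a comparison. ± is the standard error of the fit. The procedure was tested on simulated data. Figures were drawn in Python 3.11.15 with matplotlib 3.10.9.

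The 10 members and the marker and pathway lists were chosen with earlier results of these data known. All members were named by every probe of their symbol. From the lists, genes called or undetected where they should define the cells were named, and for likeness the genes of highest Pearson r. Irf1 and the examples among called genes were chosen after their values were seen. One gene of the pathway list is not reported here. Of 36692 probes with an accession, 27655 matched RefSeq genes (GRCm38.p6), used for names, and 250 bases before each start for 7 of the 10 members were taken from its promoters. Alternatives covered background correction, offset, normalization, filter, thresholds, array weights, blocks, the arrays fitted, the second probe and leaving out each array. The negative control and fixed block alternatives were added after seeing the data. The number of arrays limits the precision.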

Additional observations from a re-analysis of the deposited data

Results flagged for a closer look

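Among 48 sets of arrays of 1 group and probe checked for an array far from the others, 4 held one, and chance gives about 1 in 20. Cxcl10 was low on Mbd2KO monocyte array 7 (10.74, log2 level) and on WT macrophage array 12 (6.63). Cxcl4 was high on WT monocyte array 2 (9.56), and Cxcl14 was low on WT monocyte array 1 (4.69).

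The genotype effect on Cxcl4 differed between cell types by the interaction term of limma. The difference was 1.85 on the log2 scale for cDC1s against monocytes and 0.90 for cDC1s against macrophages.

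Splenic CD4 T cells were outside the comparisons, with 1 array per genotype and no replicate. On the WT array the raw intensity was above background for Cxcl9 (149.6), both probes of Cxcl10 (97.3 and 94.1) and the second probe of Cxcl14 (98.5). On the Mbd2KO array it was above background for Cxcl9 (134.0) and both probes of Cxcl10 (187.7 and 108.9).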

How the results depend on the processing

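WT and Mbd2KO arrays share no label number, so the genotypes were not compared in pairs. Monocyte and macrophage label numbers that differ by 10 correlated over 0.1 in 9 of 10 cases (-0.03 to 0.47 over 16347 probes), and 4 of 10 arrays were closest to their own counterpart. The labels state no such pairing. With these pairs, or the sets of 6 columns, as a random block, no count of members called changed. The correlation estimated within a block was 0.056 for the pairs and 0.018 for the sets, so that the fit could hardly change. Monocytes shared no set with macrophages, nor WT with Mbd2KO cDC1s, so that the block cannot separate set from group there.

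Of 22 differences of single members that passed, 0 reversed under any alternative run, and of 29 that did not pass 8 did. A value that passed lies well away from 0, so a change of sign was unlikely there. Over 624 runs of these 22, the pass was lost in 23 with another setting or the second probe. It was lost in 34 with an array left out. The members called in monocytes (1) became 0 without background correction or with offset 50 and 3 with array weights, and 0 to 3 with single arrays left out (0 without WT array 2 or Mbd2KO array 9, and 3 without WT array 4). In macrophages the 0 became 1 with the stricter filter, and 0 to 1 leaving out arrays. In cDC1s it became 1 with no minimum fold, and 0 to 1 leaving out arrays (Cxcl4 without array 23, Cxcl10 without 26, Cxcl1 without 28). For macrophages minus monocytes the 4 became 2 without background correction and 7 with no minimum fold, and 2 to 4 leaving out arrays. For cDC1s minus macrophages the range leaving out arrays was 6 to 7. For cDC1s minus monocytes the 4 became 7 with no minimum fold, and 4 to 5 leaving out arrays. The differing genotype effect of cDC1s against macrophages (1) became 0 without background correction, with the robust spread of the controls, offset 50, median scaling, cyclic loess, no filter, array weights, the cell types fitted alone or adjusted p under 0.01, and 0 to 1 leaving out arrays. That of cDC1s against monocytes became 0 with median scaling. The cause was not tested.

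Values that changed sign had not passed. They were Cxcl2 in monocytes (0.24, second probe) and in macrophages (-0.0079, median scaling), and Cxcl14 in monocytes (0.023 with cyclic loess, 0.0059 on the second probe, and -0.22 to 0.050 leaving out arrays) and in cDC1s (0.061, second probe). The others were Cxcl16 in macrophages (0.015, cyclic loess) and in cDC1s (-0.26 with median scaling, -0.034 on the second probe), Cxcl9 in cDC1s (-0.047 without WT array 23 to 1.67 without 26) and Cxcl13 in cDC1s (-0.27 without array 28 to 1.65 without 30).

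Median scaling moved the median of all probes to -0.26 in monocytes, -0.37 in cDC1s and -0.28 in both cDC1 comparisons of cell types. Member probes higher against lower in Mbd2KO then went from 8 and 4 to 5 and 7 in monocytes, from 6 and 6 to 5 and 7 in macrophages, and from 7 and 5 to 5 and 7 in cDC1s. Dim probes limit Cxcl11, which was not above background, and Cxcl14.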
